A study of Mus musculus with 23 samples.

Results

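Glo1, Btbd9, Dnah8, Zfand3, Glp1r and Mdga1 are 6 genes that lie side by side on mouse chromosome 17, out of 18820 genes measured on the arrays. Glo1, Btbd9 and Dnah8 were chosen because their signal was lower in KO than in WT mice on both diets. Zfand3, Glp1r and Mdga1 were taken along as neighbours. In the RefSeq gene order the segment ran Mdga1, Zfand3, Btbd9, Glo1, Dnah8, Glp1r, with 0 other genes with a probe set between them.

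Colon mucosa scrapings of 23 male mice were profiled on Affymetrix Mouse Gene 1.1 ST arrays. Mice that were 7 to 9 weeks old at the start were fed for 14 days. The 4 groups were PPARα KO mice on the heme diet (n = 6), WT mice on the heme diet (n = 6), KO mice on the control diet (n = 6) and WT mice on the control diet (n = 5). All groups ate the same Westernised high fat food, which drew 40% of its energy from fat and was low in calcium (30 µmol per g), and heme-fed mice had 0.5 µmol heme in each g of it. The KO mice were of substrain 129S4/SvJae-Pparatm1Gonz/J and the WT mice of substrain 129S1/SvImJ. Every genotype difference below is therefore also a substrain difference, and the one cannot be told apart from the other. Each mouse had its own cage, and the sources used here name no litter.

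The glyoxalase system disposes of methylglyoxal, a reactive by-product of glycolysis that damages proteins and DNA. Glyoxalase I, the product of Glo1, turns the adduct of methylglyoxal and glutathione into S-lactoylglutathione, and glyoxalase II, the product of Hagh, releases lactate and gives the glutathione back. The genes around Glo1 share no pathway with it. Btbd9 encodes a BTB domain protein linked in human genetics to restless legs syndrome, Dnah8 an axonemal dynein heavy chain best known from sperm flagella, Zfand3 a zinc finger protein, Glp1r the receptor of the gut hormone glucagon-like peptide 1, and Mdga1 a membrane-anchored adhesion protein of neurons. The Glo1 region is known to vary in copy number between inbred mouse strains. Genomic DNA was not analysed here.

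Start sites of 5 of the 6 genes were in the RefSeq promoter table (GRCm38.p6), which holds 250 bases before and 50 bases after each start. Shown are Glo1 and Dnah8, which are neighbours on opposite strands and were lower in KO mice, then Glp1r, and Zfand3 as the neighbour that was not lower. All are written along the strand of the gene, and capitals mark the only motif found.
Glo1, chr17:30612610-30612909, minus strand: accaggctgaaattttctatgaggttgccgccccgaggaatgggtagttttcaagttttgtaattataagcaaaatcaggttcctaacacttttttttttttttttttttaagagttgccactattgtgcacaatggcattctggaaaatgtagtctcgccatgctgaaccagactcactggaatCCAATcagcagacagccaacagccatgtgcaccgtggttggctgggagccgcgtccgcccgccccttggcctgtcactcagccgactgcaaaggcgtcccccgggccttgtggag
Dnah8, chr17:30626686-30626985, plus strand: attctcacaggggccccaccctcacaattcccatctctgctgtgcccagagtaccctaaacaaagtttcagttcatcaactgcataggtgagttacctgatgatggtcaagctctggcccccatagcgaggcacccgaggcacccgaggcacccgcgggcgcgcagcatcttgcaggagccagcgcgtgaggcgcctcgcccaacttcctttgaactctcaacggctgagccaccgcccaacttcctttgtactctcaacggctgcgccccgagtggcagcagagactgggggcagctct
Glp1r, chr17:30901617-30901916, plus strand: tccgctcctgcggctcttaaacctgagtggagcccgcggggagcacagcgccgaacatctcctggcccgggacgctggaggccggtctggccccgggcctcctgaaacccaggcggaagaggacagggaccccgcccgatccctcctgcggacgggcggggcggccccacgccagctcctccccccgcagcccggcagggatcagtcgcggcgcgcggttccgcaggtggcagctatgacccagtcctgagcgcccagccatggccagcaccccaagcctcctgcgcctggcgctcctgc
Zfand3, chr17:30004789-30005088, plus strand: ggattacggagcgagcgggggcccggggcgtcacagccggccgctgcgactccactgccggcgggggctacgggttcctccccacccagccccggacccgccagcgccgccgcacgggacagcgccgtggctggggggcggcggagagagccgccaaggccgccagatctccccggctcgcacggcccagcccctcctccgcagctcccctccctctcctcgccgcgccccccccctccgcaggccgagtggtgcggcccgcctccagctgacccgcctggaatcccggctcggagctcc

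The Glo1 stretch held 49.7% G and C and 11 CG dinucleotides, and that of Dnah8 60.3% and 16. Glp1r had 73.7% and 29, Mdga1 71.3% and 28, and Zfand3 78.7% and 37, against a median of 52.7% and 7 over all 32851 promoters of the table. Of 5 motifs searched on both strands, a CCAAT box (CCAAT) began at position -65 from the start of Glo1, on its own strand, and 37.4% of all promoters hold these letters. The direct repeat bound by PPARα and its partner receptor, a pair of AGGTCA units with 1 base of any kind between them (0.040% of all promoters), was not in any of the 5 windows. Neither were the single AGGTCA unit, which that repeat also holds (16.3%), the antioxidant response element core TGACNNNGC (12.4%) and the TATA box TATAAA (13.6%). These are matches of letters in one window and say nothing about binding.

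Levels below are linear signals, 2 to the power of the log2 value, in arbitrary units, for the brightest probe set of each gene. They are compared between groups only within 1 gene. Ratios between groups come from the means of the log2 values (geometric means), so they can differ slightly from the ratio of the linear means printed beside them. On the heme diet Glo1 had signals of 986 (lowest), 1018 (median) and 1086 (highest) in KO mice, against 1753, 1939 and 2108 in WT mice. Control-fed KO mice had 800.0, 860.3 and 896, against 1397, 1407, 1511, 1472 and 1563 in the 5 WT mice. Every KO mouse lay below every WT mouse on both diets, and KO mice fed heme also stayed below WT mice fed the control diet. The mean was 1022 ± 35.0 in KO and 1946 ± 139 in WT mice on heme (SD, n = 6 each), a KO over WT ratio of 0.526. In control-fed mice it was 856 ± 34.4 in KO (SD, n = 6) and 1470 ± 70.2 in WT mice (SD, n = 5), a ratio of 0.583.

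Dnah8 stands beside Glo1 on the other strand, and its genotype difference was of like size. On heme its signal was 175, 221 and 279 (lowest, median and highest) in KO mice, against 391, 404 and 451 in WT mice. Control-fed KO mice had 193, 206 and 222, against 324, 321, 436, 329 and 367 in the WT mice. The genotypes did not overlap on either diet, although 1 of the WT control mice, at 436, stood above the other 4. The KO over WT ratio was 0.534 on heme and 0.587 on the control diet.

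Btbd9, on the other side of Glo1, was also lower in every KO mouse. Its signal on heme was 356, 403 and 449 (lowest, median and highest) in KO mice, against 499.8, 549 and 577 in WT mice. Control-fed KO mice had 366, 390 and 410, against 591, 579, 606, 618 and 571 in WT mice. The groups did not overlap, and the gap from the highest KO to the lowest WT mouse was 0.15 on the log2 scale on heme and 0.48 on the control diet. The same gaps were 0.69 and 0.64 for Glo1 and 0.49 and 0.53 for Dnah8. The KO over WT ratio of Btbd9 was 0.739 on heme and 0.656 on the control diet.

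**Figure D1:**
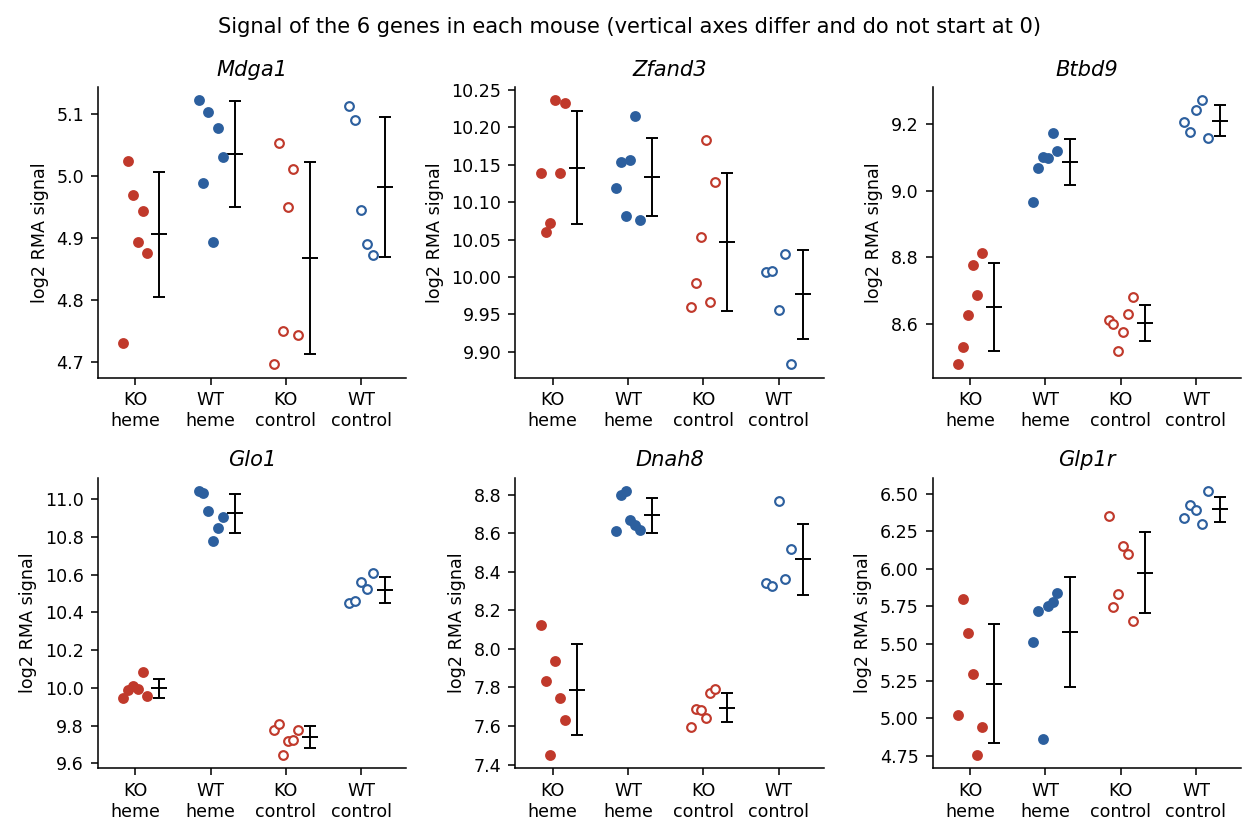
Log2 signal (vertical axes, which differ between panels and do not start at 0) of the 6 genes in each mouse, in KO heme, WT heme, KO control and WT control mice. Points are mice, filled on the heme diet and open on the control diet, and bars are the mean ± SD. KO and WT mice do not overlap on either diet for Btbd9, Glo1 and Dnah8, which were chosen for being lower in KO mice. They overlap on both for Mdga1, Zfand3 and Glp1r.

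Glp1r, on the far side of Dnah8, was lower in KO mice by mean, but the genotypes overlapped. On heme its signal was 27.0, 35.9 and 55.6 (lowest, median and highest) in KO mice, against 29.1, 53.3 and 57.2 in WT mice. Without heme it was 50.1, 62.9 and 81.6 in KO mice, against 81.1, 86.1, 83.9, 78.9 and 91.7 in WT mice. Below all WT mice lay 1 of 6 KO mice on heme and 5 of 6 on the control diet. The KO over WT ratio was 0.787 on heme and 0.745 on the control diet.

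Zfand3 and Mdga1 close the segment on the Btbd9 side. Zfand3 had 1067, 1128 and 1206 (lowest, median and highest) in KO mice on heme, against 1080, 1126 and 1189 in WT mice. Without heme it had 996, 1040 and 1163 in KO mice, against 1029, 1030, 993, 1046 and 944 in WT mice. The genotypes overlapped, with 2 of 6 KO mice below all WT mice on heme and 0 of 6 on the control diet. Mdga1 was dim, with 26.6, 30.2 and 32.5 in KO mice on heme, against 29.7, 33.2 and 34.8 in WT mice. Without heme it had 25.9, 28.9 and 33.2 in KO mice, against 34.6, 34.0, 30.8, 29.6 and 29.3 in WT mice. Its genotypes overlapped too, with 2 of 6 KO mice below all WT mice on heme and 3 of 6 on the control diet.

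Set out in chromosome order, the KO minus WT differences on heme (log2, SE of the fit) were -0.13 (0.0674) for Mdga1, 0.01 (0.0469) for Zfand3 and -0.44 (0.0524) for Btbd9. They went on with -0.93 (0.0474) for Glo1, -0.91 (0.0891) for Dnah8 and -0.35 (0.168) for Glp1r. In control-fed mice they were -0.11 (0.0706) for Mdga1, 0.07 (0.0492) for Zfand3 and -0.61 (0.0550) for Btbd9, then -0.78 (0.0497) for Glo1, -0.77 (0.0934) for Dnah8 and -0.42 (0.176) for Glp1r. The lowest values thus stood at Glo1 and Dnah8 on both diets. No test is given for these differences, because the genes were chosen by them. For the same reason nothing is read from groups that did not overlap, and the share of all genes without overlap was not counted. For scale, 0.234% of all genes were called between the genotypes on heme, with KO above WT in 0.133% and below it in 0.101%. In control-fed mice 0.0531% were called, with KO above WT in 0.0159% and below it in 0.0372%. A gene was called at an adjusted p under 0.01 in limma, provided that at least 1 of the groups compared had a mean linear signal over 20. Among 18820 genes ordered from the lowest difference, Glo1 was number 7 on heme and 10 on the control diet, and Dnah8 number 8 and 11. Btbd9 was number 76 and 32, and Glp1r number 156 and 78. The values just outside the choice were thus those of Glp1r, whose groups overlapped, and just inside it those of Btbd9.

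Outside the segment no gene of the flanks was lower in KO mice by as much as Btbd9. The 12 genes with a probe set on each side gave KO minus WT differences of -0.31 to 0.45 on heme and -0.17 to 0.24 on the control diet (log2), with medians of 0.00 and -0.00. On the Mdga1 side the nearest were Ccdc167 with -0.10 on heme and -0.05 on the control diet, Cmtr1, an mRNA cap methyltransferase, with 0.03 and 0.05, and Rnf8, a ubiquitin ligase of the DNA damage response, with -0.03 and -0.01. On the Glp1r side they were Umodl1 with -0.06 and -0.04, the sterol transporter Abcg1 with -0.31 and -0.06, and the goblet cell peptide Tff3 with -0.03 and 0.08. Of these 24 genes, 1 was called on heme, against 0.234% of all genes. It was Pde9a, a cyclic GMP phosphodiesterase, which was higher in KO mice (0.45, SE 0.0821, limma adjusted p = 0.00673). It was not called with arrays centred, with only the heme-fed groups in the fit, or without any 1 of WT heme replicates 1, 2, 3 and 6 and KO heme replicates 3, 4, 5 and 6. An unadjusted p under 0.05 was reached by 8 of the 24 on heme, against 12.2% of all genes. In control-fed mice limma called 0 of 24, against 0.0531% of all genes, and 2 had an unadjusted p under 0.05, against 5.74% of all genes.

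**Figure D2:**
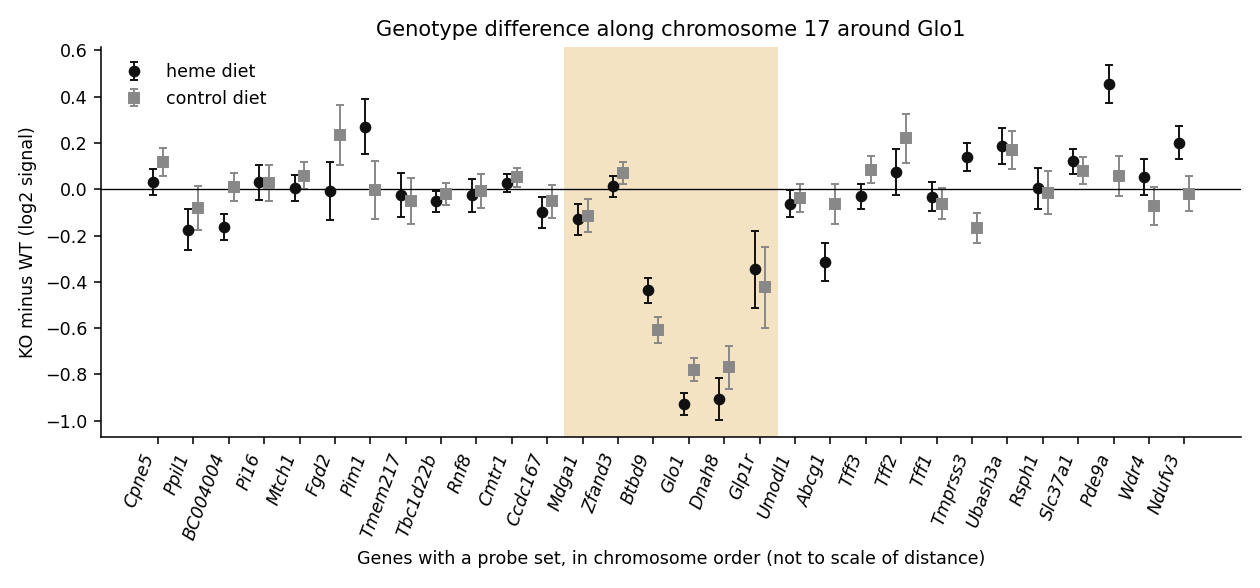
KO minus WT difference (vertical axis, log2 signal) of 30 genes in their order on chromosome 17, with the 6 genes of the segment shaded. Circles are the heme diet, squares the control diet, and bars the SE of the fit. Btbd9, Glo1 and Dnah8 lie between -0.93 and -0.44, and the 24 genes outside the shading between -0.31 and 0.45.

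A second probe set was annotated to Glo1 and another to Dnah8. That of Glo1 gave KO minus WT differences of -0.87 on heme and -0.80 on the control diet (log2), again with no overlap. Over the 23 arrays it followed the brighter Glo1 probe set with r = 0.998, and with r = 0.938 after the group means were removed, which is a description of signals from the same arrays. RefSeq also lists a pseudogene, Glo1-ps, on chromosome 2, and the sources used here do not say which of the probe sets lies on chromosome 17. By number, the second Glo1 probe set (10449644) stands between those of Btbd9 (10449631) and Dnah8 (10449652). The brighter one (10471675) lies outside the number range of the other genes of the segment. It gave all Glo1 values not marked as from the second. The places of the Glo1 probe sets on the genome were not tested. The second Dnah8 probe set was dim, with means of 36.1 ± 4.27 in KO and 40.8 ± 5.02 in WT mice on heme (SD, n = 6 each). In control-fed mice it had 34.5 ± 2.59 in KO (SD, n = 6) and 39.1 ± 1.79 in WT mice (SD, n = 5). Its difference was -0.18 on both diets, and its groups overlapped, with 3 of 6 KO mice below all WT mice on heme and 4 of 6 on the control diet. With the group means removed, the Dnah8 probe sets did not move together (r = -0.199 over 23 arrays). The non-overlapping Dnah8 groups thus rest on 1 of its 2 probe sets.

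Other genes of flagella and cilia were looked at beside Dnah8. From a list of 6, 5 genes were measured (Foxj1, Dnah5, Dnah9, Rsph1, Tekt1). Between the genotypes limma called 0 of them on either diet, against 0.234% of all genes on heme and 0.0531% on the control diet. An unadjusted p under 0.05 was reached by 0 of the 5, against 12.2% and 5.74% of all genes. With 5 genes, such counts do not set them apart from others. On heme the summed linear signal of the 5 ran from 96.6 to 109 in KO and 98.3 to 114 in WT mice. On the control diet it ran from 105 to 119 in KO and 106 to 114 in WT mice. Only 3 of the 5 passed the signal limit of 20. As to the tissue label, all 8 listed absorptive cell markers were above the signal limit, among them Car1 with geometric mean signals of 10332 to 10723 and Krt20 of 2531 to 3698 over the groups. Smooth muscle markers were above it too, such as Acta2 with 1502 to 2773, and the levels do not give the share of either cell type.

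The heme contrast was not used to choose the genes and was tested. Glo1 rose on heme in both genotypes. In KO mice its difference was 0.26 (log2, SE 0.0474, limma adjusted p = 2.68e-04), a ratio of 1.19, and in WT mice 0.40 (SE 0.0497, adjusted p = 3.48e-06), a ratio of 1.32. All heme-fed mice were above all control-fed mice within each genotype. On linear signals the KO call was lost (adjusted p = 0.0110). The second Glo1 probe set rose too, by 0.29 in KO (adjusted p = 9.44e-05) and 0.36 in WT mice (adjusted p = 1.74e-05), a check added after the values were seen. Among the 6 genes, limma called 1 higher (Glo1) and 1 lower (Glp1r) in KO mice, where 18.4% of all genes were called, and the same in WT mice, where 17.9% were.

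Glp1r fell on heme in both genotypes. The difference was -0.74 in KO mice (log2, SE 0.168, limma adjusted p = 0.00172), a ratio of 0.598, and -0.82 in WT mice (SE 0.176, adjusted p = 0.00116), a ratio of 0.567. Heme-fed and control-fed mice did not overlap in WT and overlapped in KO. In WT mice on heme, 1 mouse had 29.1, against 45.6 to 57.2 in the other 5, and without it the WT difference was -0.68. In the gut Glp1r is known from enteric neurons and intraepithelial lymphocytes, and in bulk scrapings fewer cells of a type and less RNA per cell cannot be told apart.

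Markers of nerve and other minor cell types of the scrapings were also compared between the diets. For scale, limma called 9.2% of all genes lower and 9.23% higher on heme in KO mice, and 8.29% and 9.6% in WT mice. Of 13 measured smooth muscle genes (list of 14), it called 1 lower in KO, near the share of all genes, and 11 lower in WT mice. Median differences of the 13 were -0.43 and -1.11 (log2), against -0.01 over all genes in both. Their summed linear signal ran from 4442 to 7056 in KO and 4885 to 6963 in WT mice on heme. In control-fed mice it ran from 4758 to 10543 in KO and 7705 to 20295 in WT mice. All 13 were thus lower by mean in KO than in WT mice on the control diet (median -0.61). There limma called 0, against 0.0531% of all genes, and 11 had an unadjusted p under 0.05, against 5.74% of all genes. Of 10 measured enteric nerve genes (list of 13), 3 were lower and 1 higher on heme in KO, and 6 lower in WT mice, with medians of -0.41 and -0.56. Their summed signal ran from 383 to 547 in KO and 341 to 424 in WT mice on heme, and from 453 to 643 in KO and 465 to 1029 in WT mice on the control diet. Of 7 enteroendocrine genes, 3 were lower and 1 higher in KO, and 3 lower in WT mice, and the sums ran from 4231 to 5341 in KO and 4060 to 4623 in WT mice on heme, and from 5277 to 6376 in KO and 4884 to 5728 in WT mice on the control diet. With the mean smooth muscle signal as a covariate, the Glp1r difference was -0.83 in KO (adjusted p = 0.00178) and -1.02 in WT mice (adjusted p = 0.00785). The part of the nerve and enteroendocrine signals in the Glp1r difference was not tested. For Glo1 the same covariate gave heme differences of 0.24 in KO and 0.36 in WT mice (adjusted p = 0.00178 and 0.00193). Its KO minus WT differences with the covariate were -0.93 on heme and -0.81 on the control diet, those of Dnah8 -0.91 and -0.76, and those of Btbd9 -0.44 and -0.65.

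The other 4 genes did not pass the heme test. Zfand3 differed by 0.10 in KO (limma adjusted p = 0.122) and 0.16 in WT mice (adjusted p = 0.0193), where all heme-fed mice were above all control-fed mice. Dnah8 differed by 0.09 in KO (adjusted p = 0.497) and 0.23 in WT mice (adjusted p = 0.0723). Btbd9 differed by 0.05 in KO (adjusted p = 0.551) and -0.12 in WT mice (adjusted p = 0.103). Mdga1 differed by 0.04 in KO (adjusted p = 0.736) and 0.05 in WT mice (adjusted p = 0.644). For Dnah8 the 95% intervals ran from -0.09 to 0.28 in KO and from 0.04 to 0.42 in WT mice, so that a change as large as that of Glo1 in WT mice lies within the WT interval.

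**Figure D3:**
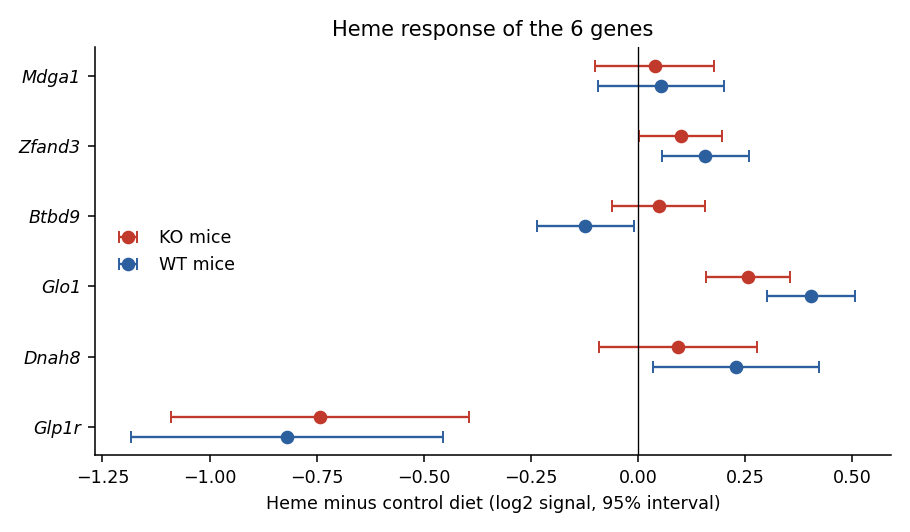
Heme minus control difference (horizontal axis, log2 signal) of the 6 genes in chromosome order, with KO mice above WT mice for each gene. Points are estimates of the fit over 23 arrays and bars their 95% intervals. Glo1 lies above 0 (0.26 in KO, 0.40 in WT) and Glp1r below 0 (-0.74 in KO, -0.82 in WT) in both genotypes.

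Whether the genotype difference had the same size on both diets was asked with the interaction of genotype and diet. limma called 0 of the 6 genes, against 0.0106% of all genes, and 2 had an unadjusted p under 0.05, against 6.75% of all genes. These were Glo1, with -0.15 (log2, 95% interval -0.289 to -0.00454, adjusted p = 0.727), and Btbd9, with 0.17 (0.0143 to 0.329, adjusted p = 0.702). The estimates for both thus had opposite signs, Glo1 lower in KO by more on heme and Btbd9 by less, and neither passed the adjustment. With the second Glo1 probe set the Glo1 estimate was smaller in size, at -0.0686, a check added after the values were seen. Dnah8 had -0.14 (-0.404 to 0.130), Glp1r 0.08 (-0.426 to 0.581), Zfand3 -0.06 (-0.198 to 0.0832) and Mdga1 -0.02 (-0.217 to 0.187), with adjusted p-values of 0.887, 0.980, 0.922 and 0.989.

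Since the genotype differences fixed how the genes move between groups, their spread from mouse to mouse was looked at within each genotype, with the diet means removed. Over 15 pairs in 12 KO and 11 WT mice, 0 of 30 relations had a permutation p under 0.05, before or after Benjamini-Hochberg adjustment. Pearson r ran from -0.53 to 0.44. Glo1 and Dnah8 had r = -0.204 in KO (rho = -0.0909, permutation p = 0.533 and 0.794, adjusted 0.778 and 0.916) and r = 0.402 in WT mice (rho = 0.364, permutation p = 0.184 and 0.210, adjusted 0.778 and 0.815). Without the 2 mice farthest from the median of Glo1 these r were -0.275 and 0.656. Btbd9 and Glo1 had r = 0.330 in KO (rho = 0.392, permutation p = 0.298 and 0.226, adjusted 0.778 and 0.815) and r = -0.534 in WT mice (rho = -0.464, permutation p = 0.132 and 0.177, adjusted 0.778 and 0.815). Without the 2 mice farthest from the median of Btbd9 these were 0.449 and -0.212. With so few mice, relations of moderate size were not detectable.

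Over all 23 arrays, the order of likeness to Glo1 among 14390 genes with a mean signal above 20 began with Dnah8 (r = 0.929) and had Btbd9 in place 3 (r = 0.838), which the choice of the genes fixed. The 5 other genes most like Glo1 were Vnn1, a pantetheinase, on chromosome 10 (r = 0.868), Spg11, a lysosome-related protein, on chromosome 2 (r = 0.832), and Yeats2, a chromatin reader, on chromosome 16 (r = 0.828). Psd4, an exchange factor for small GTPases, on chromosome 2 (r = 0.825) and Pank1, a pantothenate kinase, on chromosome 19 (r = 0.820) followed. Of the neighbours, Mdga1 had r = 0.538, Zfand3 0.0462 and Glp1r 0.0371. These values come from the same arrays and mostly carry the differences between the 4 groups, and no test goes with them. Ppara, whose disruption defines the KO mice, had mean signals of 200.03 ± 31.5 in KO and 415 ± 43.9 in WT mice on heme (SD, n = 6 each). In control-fed mice they were 310 ± 46.5 in KO (SD, n = 6) and 495 ± 50.9 in WT mice (SD, n = 5), from a probe set not placed here against the disrupted part.

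A list of genes that make, use and renew glutathione or clear methylglyoxal by other routes was taken as the surroundings of Glo1. The list also held genes for glycolysis enzymes, for the binding of glycated proteins and for regulators, and the counts below include them. Apart from Glo1, 25 of 30 listed genes were measured. On heme, limma called 10 higher and 1 lower in KO mice, where 9.23% of all genes were called higher and 9.2% lower, and 13 higher and 0 lower in WT mice, where 9.6% and 8.29% were. The median difference of the 25 was 0.15 in KO and 0.23 in WT mice (log2), against -0.01 over all genes in both. Akr1b8, an aldo-keto reductase, differed most, by 3.25 in KO (SE 0.107, adjusted p = 1.34e-15) and 2.93 in WT mice (SE 0.112, adjusted p = 3.89e-14). Gclc, the catalytic subunit of the enzyme that starts glutathione synthesis, rose by 1.51 in KO and 1.76 in WT mice, and its modifier subunit Gclm by 0.59 and 1.00. Aldh9a1, an aldehyde dehydrogenase, rose by 0.80 in KO and 0.90 in WT mice, and glutathione reductase Gsr by 0.71 and 0.79. The gene that was lower was Nfe2l2, which encodes the regulator NRF2, with -0.31 in KO (adjusted p = 3.20e-04) and -0.12 in WT mice (adjusted p = 0.180). Hagh, the partner enzyme of Glo1, differed by 0.11 in KO (adjusted p = 0.189) and by 0.27 in WT mice (adjusted p = 0.00187). By estimate, the Glo1 change on heme (0.26 in KO, 0.40 in WT mice) was above the median of the 25 in both genotypes. It was smaller than those of Gclc, Gclm, Aldh9a1 and Gsr. These were named because their changes were among the largest, so nothing is read from that order. With the smooth muscle covariate, 11 genes were called in KO mice and 7 in WT mice. The share of all genes called in that fit was not counted, so nothing about these genes in particular is read from the change.

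Between the genotypes, limma called 0 of these 25 genes on heme, against 0.234% of all genes, and 0 on the control diet, against 0.0531%. With shares so low, 0 of 25 does not set these genes apart from others. On heme 6 had an unadjusted p under 0.05, against 12.2% of all genes, and 19 of the 25 were lower by mean in KO mice. In control-fed mice 3 had an unadjusted p under 0.05, against 5.74% of all genes, and 13 of the 25 were lower by mean in KO mice. The median KO minus WT difference of the 25 was -0.09 on heme and -0.00 on the control diet (log2), with ranges of -0.31 to 0.09 and -0.51 to 0.14, against -0.93 and -0.78 for Glo1. The lowest of these on the control diet, -0.51, belonged to Akr1b8 (adjusted p = 0.126).

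**Figure D4:**
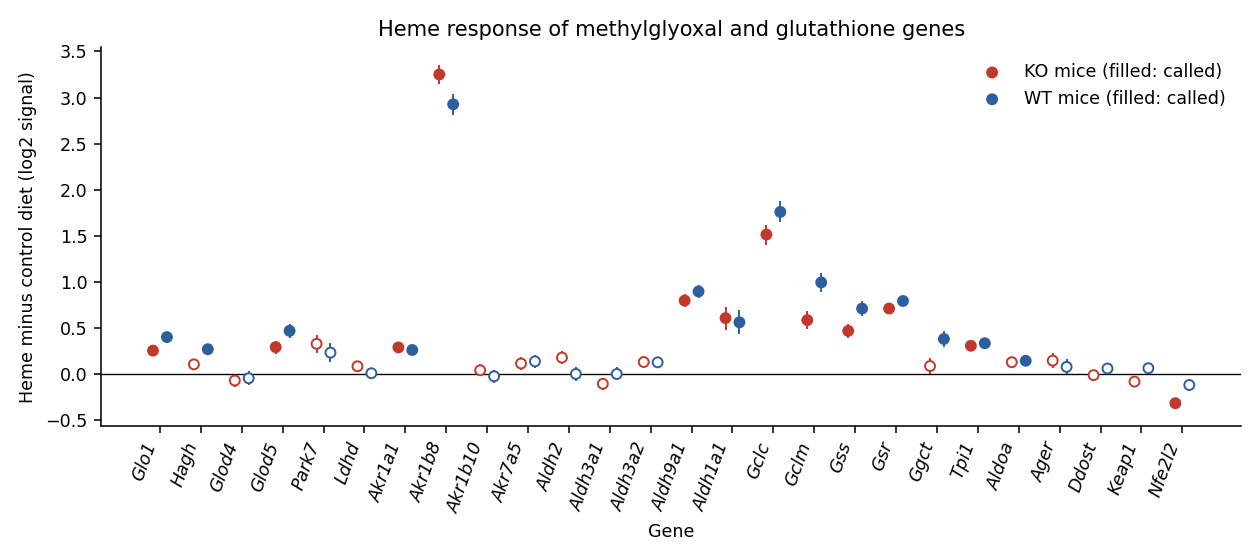
Heme minus control difference (vertical axis, log2 signal) of Glo1 and 25 other genes of the methylglyoxal and glutathione list, with KO mice left of WT mice for each gene. Bars are the SE of the fit and filled points were called. Akr1b8 has the highest values (3.25 in KO, 2.93 in WT), and Glo1, at the left, has 0.26 in KO and 0.40 in WT.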

How the data were processed

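Total RNA of 23 mice (100 ng each) was hybridised to 1 array per mouse, and the study left out 1 WT control array for its quality. The authors deposited log2 expression values per probe set, made by Robust Multi-array Average (background correction, quantile normalisation and summarisation) over the arrays; no source used here names a version. These values were used as given, with array medians of 5.80 to 5.90 and a mean correlation with the own group of 0.990 to 0.994. Array signals have no read depth, and precision depends on how many arrays there were and on the spread of each gene. The study's text names reorganised probe sets, so probes behind a gene can differ here.

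Of 35556 probe sets, 21218 had 1 gene symbol (21185 matched to RefSeq, GRCm38.p6), 1881 several and 12457 none. Symbols were updated by Entrez number, and only probe sets with 1 symbol were used, the brightest per gene by its mean over 23 arrays, which left 18820 genes. 0 columns were unmatched. All 4 groups entered a single fit in limma 3.58.1 (R 4.3.3), with Benjamini-Hochberg adjustment over all genes. Calls needed an adjusted p under 0.01 and, in 1 or more of the groups compared, a mean linear signal over 20, after the study's methods. On simulated arrays the fit was checked to recover known changes larger than the heme change of Glo1 in either genotype. Smaller changes were not simulated. Correlations used 100000 permutations within diets, two-sided. Mice were bred in the authors' facility and housed 1 to a cage, and litters are not named, so p-values measure the spread between individual mice.

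The members, gene lists, motifs and tests were chosen with earlier results of these data known. Named genes are the 6 members, the 3 nearest flanking genes on each side and any flank called between genotypes. Up to 4 called pathway genes with the largest changes per heme contrast, the 5 genes most like Glo1, Ppara and markers are named too. Hagh, Nfe2l2 and the Akr1b8 value between genotypes were named after their values were seen. Alternatives were array centring, array weights, filters, threshold, probe set choice, linear scale, trend and robust variances, groups in the fit, a smooth muscle covariate, the replicate number as a block and each array left out.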

Additional observations from a re-analysis of the deposited data

Results flagged for a closer look

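For Glp1r, WT heme replicate 3 stood apart from its group, with a log2 signal of 4.86, against 5.51 to 5.84 in the other 5 mice. The gap to the nearest mouse was 0.665 of the range of the group of 6. Of 24 groups examined (6 genes in 4 groups) this was the only one that stood out, and chance marks about 1 in 20. Without this mouse Glp1r still fell on heme in WT mice, by 0.68 on the log2 scale.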

How the results depend on the processing

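On the linear scale Glo1 lost its heme call in KO mice (0.26, limma adjusted p = 0.0110), so that 1 of the 6 genes was called there in place of 2. With each array left out in turn, the calls of Glo1 and Glp1r on heme held in both genotypes. The KO minus WT difference of Dnah8 was -0.54 on heme and -0.48 on the control diet with the mean of its probe sets, and -0.18 on both diets with its second probe set; the cause was not tested. Of the flanking genes, 0 were called on heme with arrays centred or with only the groups compared in the fit, and 0 to 1 with an array left out. With the smooth muscle covariate, 7 pathway genes were called on heme in WT mice, against 13 without it and 10 to 14 with an array left out. The share of all genes called was not counted in these other fits. Interactions that missed the threshold changed sign: that of Mdga1 ran from -0.049 to 0.022 and that of Glp1r from -0.065 to 0.17 with an array left out, and that of Dnah8 was 0.0071 with its second probe set. Mice with the same replicate number in different groups had r from -0.31 to 0.34 with the group means removed (22 pairs, 8 of them over 0.1). Mice with unlike numbers were not compared, so whether the numbers pair the mice could not be judged. With the replicate number as a block, 12 pathway genes were called on heme in WT mice and Glo1 differed by 0.26 in KO (adjusted p = 0.00102) and 0.40 in WT mice (adjusted p = 4.42e-05). Fitting only the groups compared is not possible for the interaction. The number of arrays and dim signals, as of Mdga1 and Glp1r, limit what could be detected.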
